A study of Mus musculus with 6 samples.

Results

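The genes described here are 30 skeletal muscle genes of the kind expressed by the extraocular muscles, measured in the posterior eye of mouse embryos that lack Oa1 and of wild-type embryos. They were taken from a named list of myosins, actins, troponins, other sarcomere proteins, myogenic factors and acetylcholine receptor subunits. A member was any probe set with exactly 1 of these gene symbols in the array's annotation, which gave 48 of the 45101 probe sets, for 30 of 18193 genes. The rule itself uses no measured value, but the list was drawn up with earlier results of these data known. Each gene was described by its brightest probe set over the 6 arrays, and 20 of the 30 genes had 1 probe set. The filter on low signal removed 11 of the 48 probe sets, among them the only one of Xirp1, so tests covered 37 probe sets and 29 of the 30 genes.

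The compared groups were 3 Oa1-/- and 3 WT samples of mouse eyes at embryonic day 15.5. Oa1 is the older name of Gpr143, which encodes a melanosome receptor signalling through G proteins, and its loss causes ocular albinism in humans. Each sample pooled the eyes of 6 embryos of 1 dam, so a replicate was a litter pool, and p-values measure the spread between pools. The front of each eye was removed after enucleation, and 12.5 micrograms of total RNA were labelled for an Affymetrix mouse expression array. The sources used here give neither the strain, the sex of the embryos, how far the deletion reaches, nor how much muscle stayed attached to each eye.

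Extraocular muscles move the eye and insert on the sclera, so their fibres lie outside the retina, pigment epithelium and lens. Muscle fibres contract when myosin heavy chains, each carrying light chains, pull on actin filaments. The troponin complex makes this depend on calcium: the C subunit binds calcium, the I subunit inhibits, and the T subunit holds the complex on tropomyosin. Fetal fibres use embryonic and neonatal myosins, the cardiac form of actin and the gamma subunit of the acetylcholine receptor, which adult forms later replace. MyoD and myogenin are the transcription factors that commit myoblasts and drive their differentiation.

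The signals are linear intensities in arbitrary units, scaled by the authors to 1 common mean on every array, and are not comparable between probe sets. The targeted gene matched the labels: Gpr143 read 28.3, 39.1 and 6.02 in the Oa1-/- pools, against 250.05, 257 and 246 in the WT pools. Its log2 difference, Oa1-/- minus WT, was −2.82 with an SE of 0.34 (limma, unadjusted p = 2.35e-05, adjusted p = 0.318). No probe set of the 27029 tested passed an adjusted p of 0.05. Median signals ranged from 93.6 to 129 over the Oa1-/- arrays and from 108 to 121 over the WT arrays. Oa1-/- pool 1 led the first principal component of all tested probe sets (46.0% of the variance), and WT pool 3 led the next (18.7%). The 18S probe sets were brightest on Oa1-/- pool 1, at 6348 for the 3′ set, against 1476 to 2618 on the other arrays. WT pool 3 had a summed signal of 37.2 for the Y-linked genes, against 981 to 1748 in the other pools. Results were therefore also computed without Oa1-/- pool 1 and WT pool 3.

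None of the muscle genes differed between the genotypes by the test, while most of them varied strongly among the 3 pools of each genotype. Of the 37 muscle probe sets tested, 0 had an adjusted p below 0.05, against 0% of all probe sets, and 0 had an unadjusted p below 0.05, against 4.11% of all. The Oa1-/- and WT signals overlapped for all 29 muscle genes tested, whereas for 10.8% of all genes tested they did not overlap. Log2 differences lay between −0.16 for Actc1 and 0.75 for Ckm, with a median of 0.09 over the 29 genes and 0.00 over the 12885 genes tested. They were above 0 for 23 genes and below 0 for 6, and for 6545 of the 12885 genes tested they were above 0. The genes moved together from pool to pool, so the split hung on single pools. It was 29 above and 0 below without Oa1-/- pool 2, 9 and 20 without Oa1-/- pool 1, 2 and 27 without WT pool 1, and 28 and 1 without WT pool 3. The median over the genes was 0.39 without Oa1-/- pool 2 and −0.21 without WT pool 1. Without both Oa1-/- pool 1 and WT pool 3 the split was 19 and 10, the median 0.16 and the number of muscle probe sets called 0. In RNA from a whole tissue, fewer muscle cells and less muscle RNA per cell cannot be told apart.

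**Figure D1:**
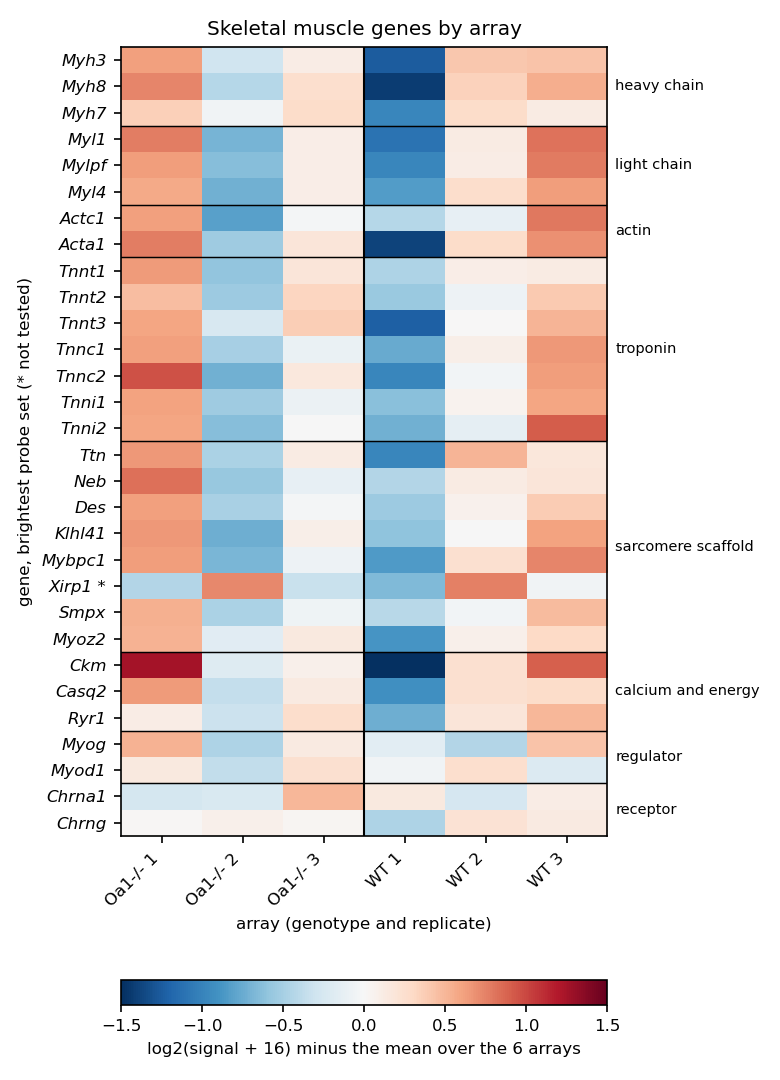
Each row is 1 of the 30 muscle genes, grouped by role, with a star at the untested Xirp1, and each column is 1 litter pool, with the Oa1-/- pools left of the WT pools. Colour is log2(signal + 16) minus the gene's mean over the 6 arrays, with the colour scale ending at 1.5 in either direction, and Oa1-/- pool 2 and WT pool 1 are the 2 lowest columns for 25 of the 29 tested genes.

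The 3 myosin heavy chains of the list had overlapping signals in the genotypes, with WT pool 1 lowest. Myh3 encodes the embryonic heavy chain, and it read 3581, 1892 and 2523 in the Oa1-/- pools, against 974, 3092 and 3152 in the WT pools. The lowest pool was WT pool 1 and the highest was Oa1-/- pool 1, so the WT pools spanned nearly the whole range and the groups overlapped. Its mean signals were 2665 ± 854 in Oa1-/- and 2406 ± 1241 in WT (SD, n = 3 each), and its log2 difference was 0.28 with a 95% interval of −0.71 to 1.27 (limma, adjusted p = 0.985). Myh8, the neonatal heavy chain, read 521, 224 and 369 in the Oa1-/- pools, against 105, 395 and 456 in the WT pools. Its highest signal was 4.98 times its lowest, again on Oa1-/- pool 1 and WT pool 1. Myh7, the slow heavy chain that also serves heart muscle, read 599.8, 449 and 570.1 in the Oa1-/- pools, against 229, 567 and 508 in the WT pools. WT pool 1 was again the lowest, followed by Oa1-/- pool 2, and the other pools of both genotypes lay within a narrow range. The log2 differences were 0.36 (SE 0.51) for Myh8 and 0.39 (SE 0.30) for Myh7, with an adjusted p of 0.985 for both in limma.

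The myosin light chains had the same 2 lowest pools. Myl1, an alkali light chain of fast fibres, read 2455, 874 and 1529 in the Oa1-/- pools, against 656, 1565 and 2517 in the WT pools. Mylpf is the regulatory light chain of fast fibres, and its signals were 1871, 766 and 1289.5 in the Oa1-/- pools, against 604, 1306 and 2078 in the WT pools. Myl4, a light chain of fetal skeletal muscle and of the atrium, read 1425, 577 and 1031 in the Oa1-/- pools, against 529, 1149 and 1484 in the WT pools. For all 3 genes the lowest pool was WT pool 1, the next was Oa1-/- pool 2 and the highest was WT pool 3, so the extremes of both directions lay within WT. The log2 differences were 0.11 for Myl1, 0.06 for Mylpf and −0.03 for Myl4, with SEs of 0.49, 0.44 and 0.41.

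Both sarcomeric actins were among the most variable genes of their brightness. Acta1, the skeletal form, read 4125, 1666 and 2750.4 in the Oa1-/- pools, against 912, 2937 and 3897 in the WT pools. Actc1, the cardiac form that fetal skeletal muscle also uses, read 3969, 1468 and 2538 in the Oa1-/- pools, against 1919, 2374 and 4517 in the WT pools. Acta1 was lowest on WT pool 1 and Actc1 on Oa1-/- pool 2, and the groups overlapped for both. Over the 6 arrays the SD of log2 signal lay at the 99.9th percentile for Acta1 and at the 99.7th for Actc1, among probe sets of like mean signal. The log2 differences were 0.28 (SE 0.52, adjusted p = 0.986 in limma) for Acta1 and −0.16 (SE 0.39, adjusted p = 0.989 in limma) for Actc1.

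**Figure D2:**
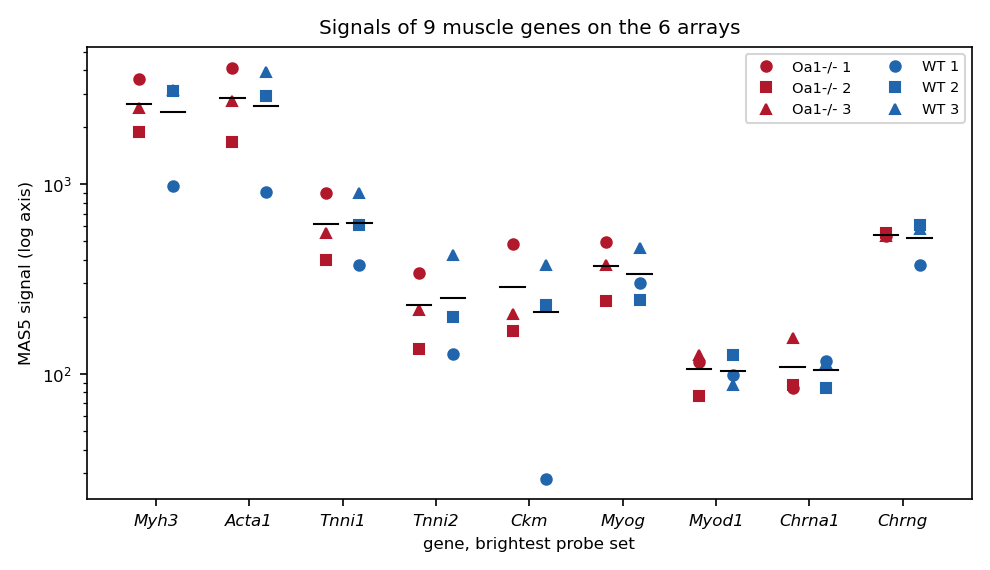
MAS5 signals of 9 muscle genes on a log axis in arbitrary units, with 1 point for each litter pool, Oa1-/- to the left of WT for each gene, the pool number shown by the marker's shape, and a line at each group's mean. The points of the genotypes overlap for every gene shown, and the lowest Ckm point, WT pool 1 at 28.1, lies below the highest bacterial control of its array.

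The list holds 7 troponin genes of slow, fast and cardiac forms. Among the T subunits, Tnnt1, the slow form, read 862, 360.0 and 622 in the Oa1-/- pools, against 395, 590.1 and 601 in the WT pools. Tnnt2 is the cardiac form that fetal skeletal muscle shares, and it read 498, 242 and 452 in the Oa1-/- pools, against 238, 340.0 and 476 in the WT pools. Tnnt3, the fast form, read 329, 178 and 280.3 in the Oa1-/- pools, against 82.2, 214 and 309 in the WT pools. WT pool 1 was the lowest pool for Tnnt2 and Tnnt3, and Oa1-/- pool 2 for Tnnt1, and the groups overlapped for all 3. Among the calcium-binding C subunits, Tnnc1, the slow and cardiac form, read 1215, 553 and 737 in the Oa1-/- pools, against 461, 837 and 1242 in the WT pools. Tnnc2, the fast form, read 1120.5, 339 and 637 in the Oa1-/- pools, against 280.4, 551 and 883 in the WT pools. Both were lowest on WT pool 1 and then on Oa1-/- pool 2. Among the inhibitory I subunits, Tnni1, the slow form, read 904, 400.2 and 555 in the Oa1-/- pools, against 375, 610.0 and 898 in the WT pools. Tnni2, the fast form, read 341, 135 and 219 in the Oa1-/- pools, against 127, 199 and 425 in the WT pools. Each had its 2 lowest pools in different genotypes, WT pool 1 and Oa1-/- pool 2. The log2 differences of the 7 genes lay between −0.03 for Tnni2 and 0.48 for Tnnt3, 5 above 0 and 2 below, and the smallest SE was 0.30 for Tnnt1. A second Tnni2 probe set gave 0.31. Over the list, 5 of 8 further tested probe sets had the sign opposite to the brightest of their gene.

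Proteins that hold the sarcomere in register were measured over wide ranges of brightness. Ttn encodes titin, the giant spring from Z-disc to M-band, and it read 1459.8, 660.1 and 1004 in the Oa1-/- pools, against 461, 1324 and 1036 in the WT pools. Neb encodes nebulin, which runs along the thin filament, and it read 197, 64.5 and 94.2 in the Oa1-/- pools, against 72.2, 114 and 119.7 in the WT pools. Des, the intermediate filament desmin that links neighbouring Z-discs, read 371, 163 and 231 in the Oa1-/- pools, against 157, 247 and 311 in the WT pools. Ttn was lowest on WT pool 1, whereas Neb was lowest on Oa1-/- pool 2 at a signal below every WT pool. Mybpc1, a slow myosin-binding protein of the thick filament, read 297, 110.2 and 176 in the Oa1-/- pools, against 96.5, 224 and 321 in the WT pools. Klhl41, a protein of nascent myofibrils, read 235, 80.3 and 153 in the Oa1-/- pools, against 88.9, 143 and 226 in the WT pools. Its lowest pool was Oa1-/- pool 2, and its highest was Oa1-/- pool 1. Myoz2, a Z-disc protein that binds calcineurin, read 148, 86.0 and 111 in the Oa1-/- pools, against 46.1, 104 and 125 in the WT pools. Smpx, a small muscle protein of the X chromosome, read 165, 74.3 and 104 in the Oa1-/- pools, against 77.7, 105 and 158 in the WT pools. The other Ttn probe sets of opposite sign gave −0.28 and −0.17, and that of Mybpc1 gave 0.46. Log2 differences of the brightest probe sets of these 7 genes lay between −0.09 for Mybpc1 and 0.33 for Myoz2. Xirp1, an actin-binding protein of muscle attachment sites, read 7.85, 37.2 and 9.61 in the Oa1-/- pools, against 4.44, 38.5 and 15.0 in the WT pools, above the highest bacterial control probe set on 2 of 6 arrays.

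Ckm, which encodes muscle creatine kinase and buffers ATP in differentiated fibres, was not above the highest bacterial control in 1 pool. Its signals were 484, 169 and 206 in the Oa1-/- pools, against 28.1, 232 and 375 in the WT pools. Oa1-/- pool 1 was the highest and WT pool 1 the lowest, and the groups overlapped. The signal of WT pool 1 lay below the highest bacterial control of that array (32.3), so no fold over it is given. The mean signals were 286 ± 172 in Oa1-/- and 212 ± 174 in WT (SD, n = 3 each), and the log2 difference of 0.75 had a 95% interval of −0.95 to 2.46 (limma, unadjusted p = 0.339, adjusted p = 0.985). The other Ckm probe set tested gave −0.37. Casq2, a calcium store protein of the sarcoplasmic reticulum, read 553, 269.9 and 384 in the Oa1-/- pools, against 177, 416 and 425 in the WT pools. Ryr1, the calcium release channel of skeletal muscle, read 243, 177 and 273 in the Oa1-/- pools, against 128, 256 and 324 in the WT pools. Both were lowest on WT pool 1, and their log2 differences were 0.27 (SE 0.36) for Casq2 and 0.04 (SE 0.31) for Ryr1.

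At their brightest probe sets, the 2 myogenic factors and 2 receptor subunits of the list spanned narrower ranges among pools than the contractile genes, though Myog only slightly. Myod1, which commits cells to the muscle lineage, read 116, 76.1 and 125 in the Oa1-/- pools, against 99.0, 126 and 87.2 in the WT pools. Myog, which drives differentiation of committed myoblasts, read 494, 242 and 374 in the Oa1-/- pools, against 304, 246 and 461 in the WT pools. Both had their lowest signal on Oa1-/- pool 2, and neither had WT pool 1 among the 2 lowest. Myog shared the 2 highest pools of the contractile genes, Oa1-/- pool 1 and WT pool 3, and its SD over the arrays lay at the 87.8th percentile of probe sets of like signal. By this measure Smpx (76.7), Myoz2 (84.1), Ryr1 (84.7), Des (85.4) and Neb (86.1) were less variable than Myog. The other 20 contractile and structural genes tested exceeded the 90th percentile. Chrna1 encodes the ligand-binding alpha subunit of the muscle acetylcholine receptor, and it read 84.1, 87.2 and 154 in the Oa1-/- pools, against 117, 84.8 and 114 in the WT pools. Chrng, the gamma subunit of the fetal receptor, read 532, 555 and 535 in the Oa1-/- pools, against 376, 614 and 578 in the WT pools. At this brightest probe set, the 3 Oa1-/- signals of Chrng lay close together and inside the range of the WT signals. WT pool 1 was the lowest of the 6. The other tested Chrng probe set read 187, 121 and 124 in the Oa1-/- pools, against 95.8, 162 and 80.7 in the WT pools. There WT pool 3 was the lowest, and Oa1-/- pool 1 lay above every WT pool. The mean signals of Chrng at the brightest probe set were 541 ± 12.5 in Oa1-/- and 522 ± 128 in WT (SD, n = 3 each). Its log2 difference was 0.08 with a 95% interval of −0.33 to 0.49 (limma, adjusted p = 0.989). Myog spanned 2.04-fold over the 6 arrays, close to the 2.09-fold of Tnnt2, the contractile gene with the narrowest span. Myod1 spanned 1.66-fold, Chrna1 1.83-fold and Chrng 1.63-fold. The other tested Chrng probe set spanned 2.32-fold. Outside the list, 13 regulators and fusion genes had a median span of 1.61-fold, but Myf5, Msc and Mymk spanned 3.01, 3.20 and 3.21-fold. The log2 differences of Myog, Myod1 and Chrna1 were 0.12, 0.01 and 0.00446, with SEs of 0.29, 0.24 and 0.26.

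**Figure D3:**
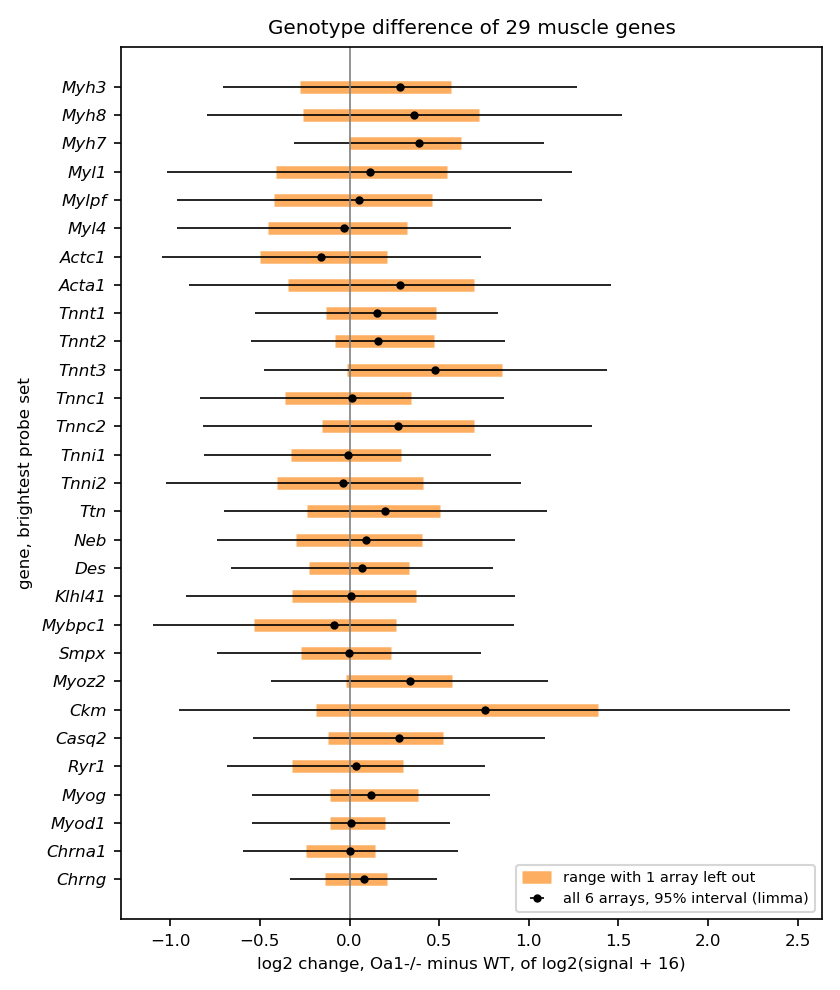
Points are log2 differences, Oa1-/- minus WT, of the 29 tested muscle genes on the log2(signal + 16) scale, thin lines are 95% intervals from limma, and wide orange bars run from the lowest to the highest value with 1 array left out. Every 95% interval includes 0, and so does every orange bar, with all 6 arrays giving −0.16 for Actc1 to 0.75 for Ckm.

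At their brightest probe sets, the contractile and structural genes shared an order of the pools that was not that of the genotypes. It was noticed in these data and is given as a description. WT pool 1 and Oa1-/- pool 2 were the 2 lowest pools for 25 of the 29 tested genes, against 6.91% of all genes tested. These 25 were all the contractile and structural genes tested, and the 4 others were Myod1, Myog, Chrna1 and Chrng. Over the 37 muscle probe sets tested, the 2 lowest pools were these for 29, against 5.79% of all probe sets. Further probe sets of Ckm, Mybpc1 and Chrng and a further Ttn probe set did not have them, and that of Ckm was highest on WT pool 1. Oa1-/- pool 1 and WT pool 3 were the 2 highest pools for 22 of the 29 genes, against 13.1% of all genes. The median deviation of the 29 genes from their own means was 0.61, −0.49 and 0.11 (log2) in Oa1-/- pools 1, 2 and 3, against −0.75, 0.12 and 0.50 in WT pools 1, 2 and 3. Both genotypes thus held a high pool, a low pool and an intermediate pool. The Oa1-/- mean of these levels was 0.08 and the WT mean −0.05, and the SD between pools within genotypes was 0.60. Over all tested probe sets, the median deviation stayed between −0.03 and 0.03 on every array.

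**Figure D4:**
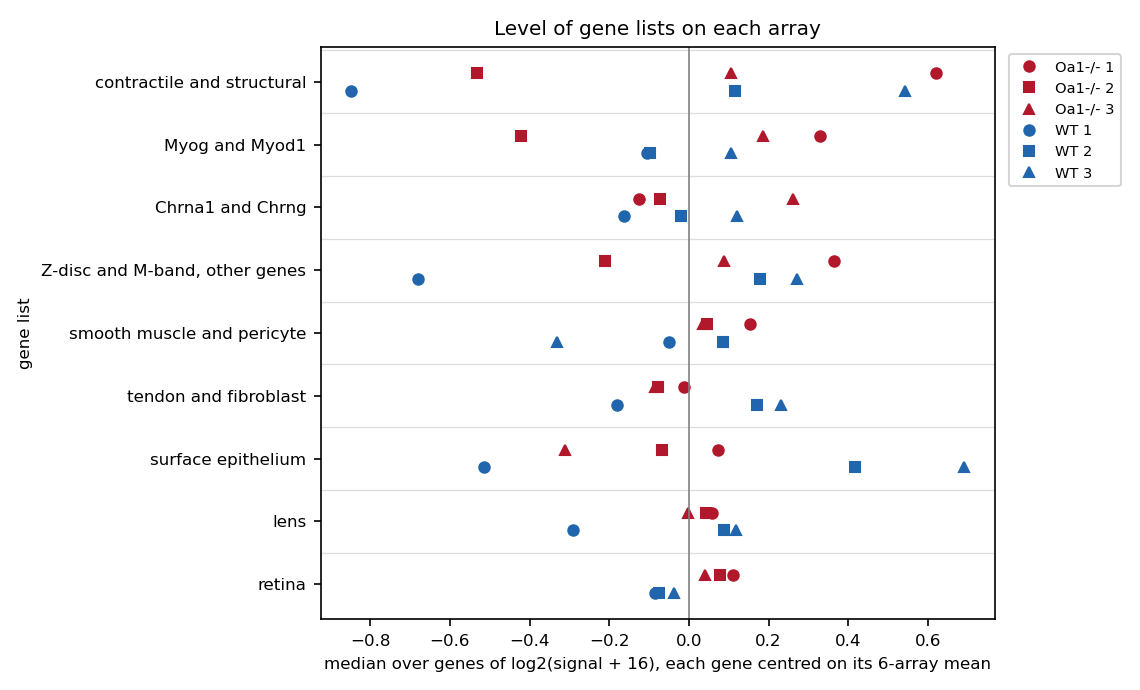
Each point is the median over the genes of a list of log2(signal + 16), each gene centred on its 6-array mean, for 1 litter pool, with Oa1-/- pools above WT pools in each row. The contractile and structural genes run from −0.85 on WT pool 1 to 0.62 on Oa1-/- pool 1, and the receptor subunits, Myog and Myod1, smooth muscle, lens and retina lists spread less. The surface epithelium list runs from −0.51 on WT pool 1 to 0.69 on WT pool 3. The 2 tested erythroid genes, not plotted, run wider, from −1.68 on WT pool 3 to 1.83 on WT pool 1.

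The spread was large for the brightness of the probe sets. The highest signal was a median of 3.06 times the lowest over the 29 genes, against 1.35 over all genes, and 26 of the 29 spanned more than 2-fold. For the contractile and structural genes this ratio ran from 2.09 for Tnnt2 to 4.98 for Myh8, leaving out Ckm, whose lowest signal was not above the bacterial controls. The SD over the 6 arrays exceeded the 90th percentile of probe sets of like signal for 20 of the 29 genes. Myod1, at the 38.3rd percentile, Chrna1, at the 53.5th, and Chrng, at the 74.7th, were the 3 least variable by this measure.

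Slow, fast, fetal and adult forms were compared through the log2 difference between the forms of a pair on each array, in which a shared rise or fall of both genes cancels. None of 9 pairs differed between the genotypes by an exact two-sided permutation test, whose lowest p was 0.3 (adjusted over the 9 pairs, 0.75), and which cannot go below 0.1 with 3 pools against 3. The values are relative, since levels of different probe sets are not comparable. Tnni1 minus Tnni2, slow against fast, was 1.37, 1.46 and 1.28 in the Oa1-/- pools, against 1.45, 1.54 and 1.05 in the WT pools. The SD of this difference over the arrays was 0.17, against 0.53 for Tnni1 and 0.65 for Tnni2 alone. Myh3 minus Myh8, embryonic against neonatal, was 2.74, 2.99 and 2.72 in the Oa1-/- pools, against 3.04, 2.92 and 2.75 in the WT pools. Its SD over the 6 arrays was 0.14, against 0.69 for Myh3 and 0.80 for Myh8 alone. In all 8 pairs whose genes both passed the filter, the difference varied less than either gene.

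The difference was highest on WT pool 1 in 7 of these 8 pairs, of which several share Tnnt3 or Myh8. For Tnnc1 minus Tnnc2 it was 0.68 on Oa1-/- pool 2 and 0.69 on WT pool 1, so those pools were alike. Actc1 minus Acta1, the fetal against the adult actin, was 1.06 on WT pool 1 and between −0.31 and 0.21 on the other arrays. The genotypes differed by −0.44 in this pair (exact p = 0.4). Tnnt1 minus Tnnt3 was 1.35, 0.96 and 1.11 in the Oa1-/- pools, and its WT values ran from 0.92 on pool 3 to 2.06 on pool 1, with a genotype difference of −0.33 (exact p = 0.5). The genotype difference was −0.25 for Tnnc1 minus Tnnc2 (exact p = 0.3), −0.14 for Myl4 minus Myl1, a fetal against a fast light chain (exact p = 0.4), and −0.32 for Tnnt2 minus Tnnt3 (exact p = 0.4). It was −0.08 for Myh3 minus Myh8 (exact p = 0.5), 0.03 for Myh7 minus Myh8 (exact p = 0.9) and 0.02 for Tnni1 minus Tnni2 (exact p = 0.9). Chrng minus Chrne, the fetal against the adult receptor subunit, gave 0.04 (exact p = 1), with Chrne below the filter.

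**Figure D5:**
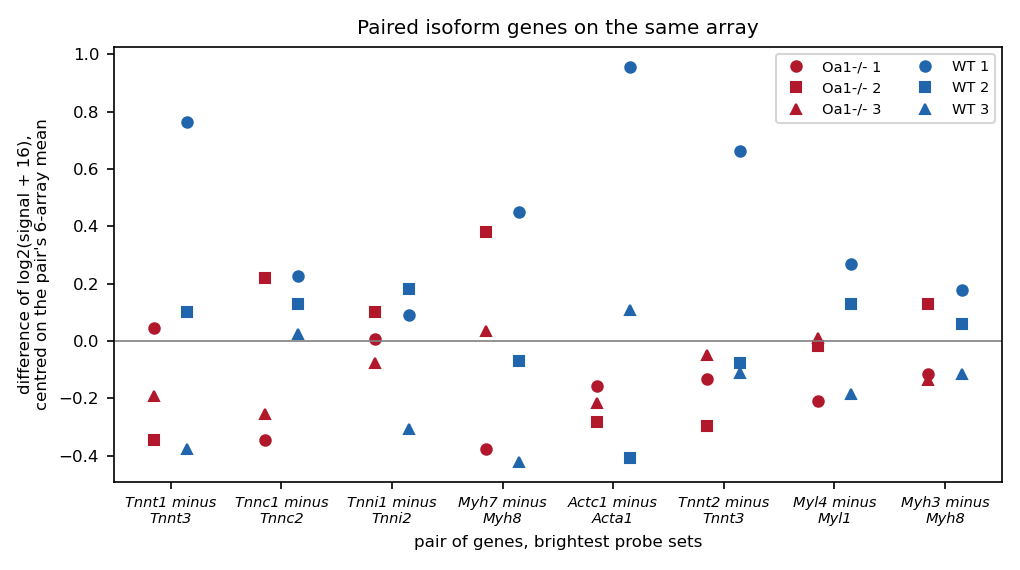
Log2 difference between the 2 genes of each of 8 pairs on each litter pool, centred on the pair's mean over the 6 arrays, with Oa1-/- pools left of WT pools. WT pool 1 is the highest point in 7 of the 8 pairs, by the widest margin for Actc1 minus Acta1.

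Several adult receptor and heavy chain forms were faint. Chrne, the adult epsilon subunit that replaces Chrng, read 31.8, 21.7 and 8.39 in the Oa1-/- pools, against 2.98, 32.9 and 27.5 in the WT pools, and exceeded the highest bacterial control on 2 arrays. Myh1, an adult fast heavy chain, read 45.3, 30.8 and 51.5 in the Oa1-/- pools, against 26.4, 60.6 and 58.3 in the WT pools, and exceeded that control on 5 arrays. Myh4, the fastest adult heavy chain, exceeded it on 0 arrays. Myh2, another fast adult form, passed the filter at 106, 126 and 118 in the Oa1-/- pools, against 101, 158 and 149 in the WT pools, with overlapping groups and above the control on 6 arrays. Myh13, the extraocular heavy chain, was sought but had no probe set with its symbol alone. The muscle genes measured here therefore mark skeletal muscle and not which muscle it was. Values near the control are close to background, and no call of presence or absence was used.

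Other muscle genes, in a list of 97 of which 89 had a probe set and 62 passed the filter, gave 0 with an adjusted p below 0.05 and 0 with an unadjusted p below 0.05 in limma, against 0% and 4.11% of all probe sets. Of the 62, 38 had a log2 difference above 0 and 24 below, with a median of 0.04. The pool order of the contractile genes was seen in part of this list: WT pool 1 and Oa1-/- pool 2 were the 2 lowest for 24 of the 62. It held for 10 of 14 Z-disc and M-band genes and for 3 of 13 regulators and fusion genes. The 6 genes with the smallest p were Srl, Msc, Six4, Stac3, Mef2c and Myoz3. Srl encodes sarcalumenin, a calcium-binding protein of the sarcoplasmic reticulum, and read 1112, 811 and 897 in the Oa1-/- pools, against 449, 852 and 798 in the WT pools (log2 difference 0.46, SE 0.23). Msc, a bHLH factor of head muscle progenitors, read 385, 191 and 308 in the Oa1-/- pools, against 610.4, 293 and 408 in the WT pools (log2 difference −0.54, SE 0.30). Six4, a homeobox factor of myogenic precursors, read 149.5, 170.4 and 156 in the Oa1-/- pools, against 261, 189 and 169 in the WT pools (log2 difference −0.33, SE 0.19). The groups overlapped for all 3. A second Six4 probe set gave 0.07. Stac3, needed for excitation-contraction coupling, Mef2c, a partner of the myogenic factors, and Myoz3, a Z-disc protein, had log2 differences of 0.40, 0.23 and 0.34 at their brightest probe sets. The 4 other Mef2c probe sets tested were of opposite sign, at −0.20, −0.38, −0.27 and −0.21. Itga7, the laminin receptor of muscle fibres, was 1 of the 62 (1.61%) with groups that did not overlap, against 10.2% of all probe sets, at 93.6, 107 and 101 in the Oa1-/- pools, against 86.1, 75.2 and 83.4 in the WT pools, and it is named after its values were seen.

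Markers of several other cell types were also low on WT pool 1, the pool lowest for most muscle genes. It was the lowest pool for 3 of 3 retina, 5 of 5 pigment epithelium, 4 of 4 lens, 3 of 3 surface epithelium and 5 of 7 tendon and fibroblast markers tested. In other lists WT pool 1 was lowest for 1 of 3 scleral cartilage and 0 of 6 smooth muscle and pericyte markers. It was lowest for 0 of 3 endothelium, 0 of 2 Schwann cell and nerve, 0 of 2 erythroid and 0 of 1 cardiac markers. Over all genes tested it was the lowest for 2970 of 12885. The 3 retina markers spanned a median of only 1.15-fold over the 6 arrays. At their brightest probe sets all 3 read higher in every Oa1-/- pool than in every WT pool, as did 705 of the 12885 genes. Their adjusted p was 0.985 in limma. Oa1-/- pool 2, the other low muscle pool, and WT pool 1 were together the 2 lowest for 1 lens marker and for 0 markers of the other lists. The summed signal of the 30 muscle genes ranged from 12974 to 29202 over the Oa1-/- pools and from 10118 to 28121 over the WT pools, and 28 of the 30 exceeded the highest bacterial control on every array. Of 6 cardiac markers, 3 did so, and their sum ranged from 213 to 360 over the Oa1-/- pools and from 332 to 351 over the WT pools. Myl7 and Nppa, which define atrial muscle, did not pass the filter. Of 8 smooth muscle and pericyte markers 7 exceeded the control on every array, with sums of 6116 to 6904 in Oa1-/- and 4483 to 6616 in WT. Of 7 tendon and fibroblast markers all 7 did, with sums of 38761 to 41159 in Oa1-/- and 37349 to 50437 in WT. Tnmd, a tendon gene, read 1274, 1191 and 1159.5 in the Oa1-/- pools, against 597, 1415 and 1748 in the WT pools, lowest on WT pool 1, while Oa1-/- pool 2 lay between the other Oa1-/- pools. Scx, another tendon marker of the list, read 130, 94.3 and 105 in the Oa1-/- pools, against 126, 120 and 66.0 in the WT pools. Its lowest pool was WT pool 3. Krt12, the corneal keratin, read 1369.7, 1241 and 1046 in the Oa1-/- pools, against 332, 2502 and 3203 in the WT pools, with the same lowest and highest pools as the myosin light chains. The 3 surface epithelium markers summed to 2667 to 3397 in Oa1-/- and 1716 to 6074 in WT. The 3 erythroid markers summed to 6437 to 9628 in Oa1-/- and 2925 to 22508 in WT. Hbb-y, an embryonic globin, read 6006, 7654 and 8704 in the Oa1-/- pools, against 19359.9, 7799 and 2752 in the WT pools, so that WT pool 1, lowest in muscle, was highest in globin, and WT pool 3 the lowest. The 4 lens markers summed to 82143 to 85549.6 in Oa1-/- and 68313 to 88563 in WT, and the 4 scleral cartilage markers to 8604 to 9601 in Oa1-/- and 7431 to 9425 in WT. The 3 retina markers measured summed to 31632 to 33268 in Oa1-/- and 29031 to 29957 in WT. The 5 pigment epithelium markers summed to 24513 to 27689 in Oa1-/- and 21135 to 27879 in WT, with WT pool 1 at the low end. None of the markers was listed at 0. The part of these other tissues in the muscle signals was not tested.

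The promoters of the muscle genes were read because the contractile genes moved together across pools. RefSeq (assembly GRCm38.p6) gave 28 windows of 250 bases before the start of 25 of the 30 genes. The windows of Tnni1 overlap each other, as do those of Myh7. The 28 are therefore not independent, and a match in such an overlap is counted in both windows. Myogenic factors bind E-boxes, with preference for the core CAGCTG, and the core CACCTG with its reverse complement CAGGTG. Serum response factor binds the CArG box, CC, then 6 A or T bases, then GG. At least 1 of the 3 E-box forms, read on both strands, stood in 17 of the 28 windows (60.7%), against 27.7% of 32851 windows of all genes. Any CANNTG, which includes those forms, stood in 85.7% against 66.2%. A CArG box stood in 2 of the 28 windows (7.14%), against 1.47% of all, and a MEF2 box, the site of the Mef2 factors, in 5 (17.9%), against 2.92% of all. Both CArG boxes are in the actins, which are shown first, followed by a troponin, desmin and the acetylcholine receptor subunits, which did not have the same 2 lowest pools. Capitals mark the E-boxes and CArG boxes found, and each sequence runs 5′ to 3′ on the strand of its gene.
Acta1, chr8:123894776-123895025, minus strand: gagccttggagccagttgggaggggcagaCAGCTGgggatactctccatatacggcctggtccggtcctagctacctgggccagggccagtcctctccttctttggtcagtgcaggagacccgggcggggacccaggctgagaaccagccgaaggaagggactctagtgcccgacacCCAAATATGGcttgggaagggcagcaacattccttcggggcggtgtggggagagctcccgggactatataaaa
Actc1, chr2:114052876-114053125, minus strand: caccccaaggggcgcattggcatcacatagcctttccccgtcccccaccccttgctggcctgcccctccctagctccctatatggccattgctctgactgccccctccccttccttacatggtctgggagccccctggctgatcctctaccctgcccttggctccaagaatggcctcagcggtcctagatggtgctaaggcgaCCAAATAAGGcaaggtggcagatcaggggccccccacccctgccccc
Tnnt1, chr7:4515976-4516225, minus strand: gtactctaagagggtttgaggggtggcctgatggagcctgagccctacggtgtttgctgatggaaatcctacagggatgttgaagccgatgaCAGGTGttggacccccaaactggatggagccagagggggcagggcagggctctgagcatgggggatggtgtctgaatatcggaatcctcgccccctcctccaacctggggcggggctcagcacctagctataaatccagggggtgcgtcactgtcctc
Des, chr1:75360042-75360291, plus strand: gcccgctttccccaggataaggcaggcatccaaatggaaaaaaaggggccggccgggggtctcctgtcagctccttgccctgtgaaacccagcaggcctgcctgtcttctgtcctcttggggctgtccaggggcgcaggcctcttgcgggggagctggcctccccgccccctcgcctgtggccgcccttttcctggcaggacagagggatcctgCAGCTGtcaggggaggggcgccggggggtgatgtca
Chrna1, chr2:73580339-73580588, minus strand: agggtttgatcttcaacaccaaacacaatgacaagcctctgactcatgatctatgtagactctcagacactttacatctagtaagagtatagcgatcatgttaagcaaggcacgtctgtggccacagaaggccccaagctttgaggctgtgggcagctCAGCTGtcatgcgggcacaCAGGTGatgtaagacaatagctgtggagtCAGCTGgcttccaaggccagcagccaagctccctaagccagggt
Chrng, chr1:87205561-87205810, plus strand: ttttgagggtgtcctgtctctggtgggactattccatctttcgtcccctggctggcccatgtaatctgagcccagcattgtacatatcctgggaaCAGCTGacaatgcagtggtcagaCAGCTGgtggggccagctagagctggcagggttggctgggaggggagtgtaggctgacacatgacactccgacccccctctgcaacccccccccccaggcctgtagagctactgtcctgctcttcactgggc

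The CArG box began 73 bases before the annotated start of Acta1 and 47 before that of Actc1. The 3 E-boxes of Chrna1 began 92, 73 and 44 bases before its start, and those of Chrng 155 and 132 bases before. Des had 1, at 36 bases, and Tnnt1 had 1, at 158 bases. Actc1, with the 2 lowest pools of the other contractile genes, had 0 of these E-boxes in its window, as did Myh3, Myh8, Myl4, Casq2, Ryr1, Smpx, Tnnc1 and Myog. These matches describe letters in the reference sequence, not sites bound in these eyes, and a window without a match shows only that the letters are not in it.

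Several muscle genes lie close to each other in the genome. Tnni1 and Tnnt2 are 25.3 kb apart on chromosome 1, and Tnni2 and Tnnt3 are 54.4 kb apart on chromosome 7, each with 1 gene between them in the RefSeq table. Myh3 and Myh8 are 174.8 kb apart on chromosome 11, with 6 genes between. The slow Tnni1 and the fast Tnni2, on different chromosomes, had an SD of their difference over the pools of 0.17. For Actc1 and Acta1, also on different chromosomes, it was 0.50. Any part of genomic distance in the shared pool order was not tested.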

How the data were processed

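Posterior eyes at embryonic day 15.5 were measured on Affymetrix mouse arrays, 3 litter pools per genotype. The authors deposited 1 signal intensity per probe set and array on a linear scale, and the submitters' processing notes name MAS5, with no version. Genes were named through the platform annotation, and probe sets with several symbols were left out. With 3 arrays per genotype, their number limits the precision.

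From these intensities, log2(signal + 16) was taken without renormalizing. Control probe sets were dropped, and those with a mean signal above the 40th percentile (66.0) were kept, 27029 in all. A linear model, Oa1-/- minus WT, was fitted over all of them in R 4.3.3 with limma 3.58.1 (lmFit, eBayes with intensity trend), two-sided, with Benjamini-Hochberg adjustment and a threshold of 0.05. The log2(signal + 16) scale understates changes of dim probe sets. Tables were made in Python 3.11.15 with pandas 2.3.3. The code was tested on simulated data.

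Every muscle gene was named by its brightest probe set, with other probe sets where signs differed. Of the other muscle genes, those with an unadjusted p below 0.05, or else the 6 with the smallest p, were named, and at most 3 markers of a cell type. The members and lists were chosen with earlier results of these data known. Alternatives were pseudocounts of 1 and 64, the filter removed or set at the 70th percentile, quantile normalization or median centring of arrays, array weights, no intensity trend, a replicate block, gene means over probe sets, each array left out, and 2 arrays left out together.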

Additional observations from a re-analysis of the deposited data

How the results depend on the processing

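No alternative moved a muscle probe set past an adjusted p of 0.05, and the count stayed at 0 in limma, including with the replicate number as a block. Of all probe sets, 2 passed with median centring, 2 with array weights and 0 with each other alternative. Gpr143 passed with median centring, at a log2 difference of −2.79, and ranged from −3.09 to −2.43 when an array was left out. At an unadjusted p below 0.05 the muscle count was 0, except 2 with array weights. The median over muscle genes, 0.09, ranged with 1 array left out from −0.21 without WT replicate 1 to 0.39 without Oa1-/- replicate 2, and was not computed with array weights. Above and below 0 were 29 and 0 genes without Oa1-/- replicate 2, 9 and 20 without Oa1-/- replicate 1, 28 and 1 without WT replicate 3, and 5 and 24 with array weights.

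The sample titles do not say whether pools with the same replicate number were handled together. Deviations of same-numbered pools correlated at −0.289, 0.156 and −0.231 for numbers 1, 2 and 3, and Oa1-/- pool 1 correlated best with WT pool 3 (0.363). Because the deviations are taken from means of only 3 pools, these correlations cannot decide the question. The replicate block left 0 muscle probe sets past the threshold and 23 genes above 0 and 6 below.

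With 1 array left out, log2 differences ranged as follows. Heavy and light chains and actins: Myh3 −0.28 to 0.56, Myh8 −0.26 to 0.72, Myh7 −0.0041 to 0.62, Myl1 −0.41 to 0.55, Mylpf −0.42 to 0.46, Myl4 −0.46 to 0.32, Acta1 −0.34 to 0.70, Actc1 −0.50 to 0.21. Troponins: Tnnt1 −0.13 to 0.48, Tnnt2 −0.080 to 0.47, Tnnt3 −0.015 to 0.85, Tnnc1 −0.36 to 0.34, Tnnc2 −0.15 to 0.69, Tnni1 −0.33 to 0.28, Tnni2 −0.40 to 0.41. Structural genes: Ttn −0.24 to 0.51, Neb −0.30 to 0.40, Des −0.22 to 0.33, Klhl41 −0.32 to 0.37, Mybpc1 −0.53 to 0.26, Smpx −0.27 to 0.23, Myoz2 −0.022 to 0.57. Calcium and energy: Ckm −0.19 to 1.39, Casq2 −0.12 to 0.52, Ryr1 −0.32 to 0.30. Regulators and receptors: Myog −0.11 to 0.38, Myod1 −0.11 to 0.20, Chrna1 −0.24 to 0.14, Chrng −0.14 to 0.21. Pairs: Tnni1 minus Tnni2 −0.12 to 0.12, Myh7 minus Myh8 −0.18 to 0.26, Chrng minus Chrne −0.22 to 0.27. Each of the 29 genes changed sign without at least 1 array.

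Other settings reversed signs, and the cause was not tested. Array weights gave Myh3 −0.27, Myh8 −0.27, Acta1 −0.34, Tnnt1 −0.36, Tnnt2 −0.21, Tnnc1 −0.35, Tnnc2 −0.30, Myl1 −0.44, Mylpf −0.42, Myog −0.00321, Myod1 −0.36, Ttn −0.48, Neb −0.41, Des −0.31, Casq2 −0.23, Chrng −0.022, Klhl41 −0.44 and Ryr1 −0.24. Without Oa1-/- pool 1 and WT pool 3, an alternative added after seeing the data, Tnnt1 was −0.027, Tnni2 0.10, Myod1 −0.16, Neb −0.19, Des −0.019, Klhl41 −0.015 and Tnni1 minus Tnni2 −0.12. Median centring gave Tnni1 0.020, Myl4 0.00015 and Smpx 0.027, and quantile normalization gave Tnni1 0.010. Averaging probe sets gave Tnni1 minus Tnni2 −0.035 and Myl4 minus Myl1 0.019. A pseudocount of 1 gave Chrng minus Chrne −0.20. Signals near the bacterial controls (22.1 to 39.3 for the highest) are limited by background.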

Other observations

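Igf2 and Dlk1, imprinted growth genes that fetal muscle and mesenchyme both express, had the pool order of the contractile genes at their brightest probe sets, with Oa1-/- pool 2 and WT pool 1 lowest and Oa1-/- pool 1 and WT pool 3 highest. The other tested probe set of each gene did not have this order. The log2 differences at the brightest were −0.06 for Igf2 and −0.18 for Dlk1, and neither had an unadjusted p below 0.05 in limma. The fold between the highest and the lowest pool was 1.21 for Igf2 and 1.70 for Dlk1, against a median of 3.06 for the muscle genes. Atp2a1, the calcium pump of fast fibres, spanned 4.80-fold, highest on Oa1-/- pool 1 and lowest on WT pool 1, and the brightest Myom2 probe set, of an M-band protein, 4.34-fold between the same pools. Tpm1 and Tpm2, the tropomyosins, which smooth muscle and fibroblasts also express, were instead highest on WT pool 1 and lowest on WT pool 3 at their brightest probe sets. Another Tpm2 probe set read 935, 448 and 683 in the Oa1-/- pools, against 468, 701 and 912 in the WT pools, the pool order of the contractile genes. These genes were named after their values were seen.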
